A study of Bombyx mori with 4 samples.

Results

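The short transposon-annotated gene models of the silkworm are predicted genes that the authors moved from the protein-coding to the transposon class and that are under 2000 nt long. They were chosen by their identifier, their annotation and their length in the table of BmVasa-bound reads, and no read count was used. There were 1129 of them among 18596 sequences, which was 6.07% of the table, and among 2580 transposon-annotated gene models of any length. Their lengths ran from 279 to 1999 nt with a median of 1240 nt. The table gives each one an identifier, a length and the annotation, without a gene symbol, a transposon class or a position, so none could be assigned to a family of elements here.

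BmVasa is the silkworm Vasa, a DEAD-box RNA helicase of the germ line, and BmN4 is a silkworm cell line of ovarian origin. RNA bound to the endogenous protein was recovered by FAST-iCLIP, in which UV light links protein to RNA in living cells, an antibody collects the protein and the attached fragments are sequenced. Both groups were BmN4 cells electroporated with siRNA, directed either at luciferase as the control (Luc KD) or at the helicase Spindle-E (Spn-E KD), without which cells hold less Siwi-piRISC, the complex of Siwi with its small RNAs. The labels give 2 replicates for each group, and the authors merged them, so each value below comes from 1 pooled library per group and has no replicate check. Tests on reads therefore compare the pooled libraries and not the conditions, and every interval is a 95% interval that covers counting error only. The Spn-E transcript could not be looked up, because the table holds no gene symbols, and the groups rest on the labels.

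Transposons are DNA segments that move or copy themselves within a genome, and in the germ line they are silenced by PIWI proteins loaded with small RNAs called piRNAs. In silkworm ovarian cells Siwi cleaves transposon transcripts and passes the fragments on to Ago3 in the perinuclear granules called nuage, where Vasa resides. Gene prediction often reports fragments or remnants of transposons as genes, and per the study's methods a gene model joined the transposon class through a transposon-related description or through near-complete similarity to a known element. Which of these routes a single gene model took is not in the table.

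Summed over the short gene models, BmVasa-bound reads differed between the libraries by less than counting error. Luc KD gave 10513 reads on them, and Spn-E KD gave 10844. Of the sense reads on the gene library, which numbered 384001 for Luc KD against 403022 for Spn-E KD, this was a share of 2.74% (Wilson interval 2.69 to 2.79) against 2.69% (2.64 to 2.74). The difference, Spn-E KD minus Luc KD, was −0.047 percentage points (Newcombe interval −0.119 to 0.025), and Pearson's chi-squared test on reads did not separate the libraries (statistic 1.65 on 1 degree of freedom, p = 0.199). Scaled by the authors to reads per 1000000 genome-mapped reads (RPM, from 1012269 and 1059323 of them), the log2 ratio of Spn-E KD over Luc KD for the summed reads was −0.021 (exact interval −0.060 to 0.018). The direction of the share rested on 1 sequence of the transposon library, with 69130 reads under Luc KD and 110071 under Spn-E KD. With that sequence left out of the base, the short gene models took 3.34% under Luc KD and 3.70% under Spn-E KD, which was higher by 0.363 points (0.270 to 0.456).

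Read density per length was low in both libraries beside that of longer transposon-annotated gene models. Paired read counts and densities are given with Luc KD first. Summed over the 1129 gene models, the read density in RPM per kb (RPKM) was 7.42 under Luc KD and 7.32 under Spn-E KD. Protein-coding gene models under 2000 nt had 8.81 and 7.48 RPKM. Transposon-annotated gene models from 2000 to under 4000 nt had 12.3 and 12.4 RPKM, and those of 4000 nt or more had 11.5 and 9.34 RPKM. The short transposon-annotated gene models thus had the lowest density of these 4 classes in both libraries, by a small margin over short protein-coding ones in Spn-E KD. Protein-coding gene models of any length had 7.77 and 6.45 RPKM, which was lower than the short class in Spn-E KD. The whole table had 12.1 RPKM in each library. These densities do not take the amount of each transcript into account.

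Many of them had no read at all. In Luc KD 392 were without a read, in Spn-E KD 359, and 220 had none in either library, which was 19.5% of the gene models against 12.5% of protein-coding gene models under 2000 nt and 11.0% of the whole table. The median was 1 read in each library. Reads were found in both libraries for 598, in Luc KD only for 139 and in Spn-E KD only for 172. A count of 0 allows a level of up to 3 reads, or 2.96 RPM in the Luc KD library and 2.83 RPM in the other, so a gene model without reads was not detectable at this depth rather than unbound.

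The reads that were found were concentrated in few gene models. The most abundant one held 10.1% and 13.2% of their reads. The 10 most abundant held 40.6% and 36.4%, and the 50 most abundant 67.2% and 64.1%. Only 16 reached a mean of 100 RPM over both libraries and 40 reached 50 RPM. The best placed ranked 19 in the whole table by mean RPM, and 3 were among its top 100.

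KWMTBOMO16482, 1354 nt long, was the most strongly bound, with 1065 Luc KD reads (1052 RPM) and 1426 Spn-E KD reads (1346 RPM). It was higher in Spn-E KD, with a log2 fold change of 0.36 on the scale of RPM + 1 (exact binomial test on reads, Benjamini-Hochberg adjusted p = 4.8e-08). KWMTBOMO15493, of 1467 nt, had 732 and 487 reads, and its log2 fold change was −0.65 (adjusted p = 3.93e-13). Both differences were larger than counting error and in opposite directions. The same measure was −0.52 for KWMTBOMO03060, of 1571 nt, which had 694 and 505 reads. KWMTBOMO04926, the fourth, is only 763 nt long and had 408 and 281 reads, with a log2 fold change of −0.60. The gene models ranked 2 to 4 by abundance were thus lower in Spn-E KD under the authors' scaling. When centred on protein-coding sequences, KWMTBOMO03060 (−0.23, adjusted p = 0.0702) and KWMTBOMO04926 (−0.30, adjusted p = 0.0633) lost the call in the exact binomial test. With an assumed coefficient of variation of 0.1, edgeR's exact test called none of the leading 4, with adjusted p of 0.418, 0.0653, 0.179 and 0.131 in order of abundance.

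The other 6 of the most abundant 10 were also split. KWMTBOMO08774 rose from 213 to 387 reads (log2 fold change 0.79, adjusted p = 2.7e-09). KWMTBOMO08577 fell from 360 to 166 reads (−1.18) and KWMTBOMO02144 from 355 to 168 reads (−1.14), and these were the only ones of the 10 to change more than 2-fold. KWMTBOMO11400 fell from 219 to 136 reads, with a log2 fold change of −0.75. KWMTBOMO04545 and KWMTBOMO16648 rose by nearly the same amount, from 119 to 205 reads and from 107 to 184 reads, each with a log2 fold change of 0.71. All 10 passed the exact binomial test, 4 higher and 6 lower, while only KWMTBOMO08774, KWMTBOMO08577 and KWMTBOMO02144 were called with an assumed variation of 0.1, and their summed reads went from 4272 to 3945, a log2 ratio of −0.18 (−0.24 to −0.12). The other 1119 together went from 6241 to 6899 reads, a log2 ratio of 0.079 (0.029 to 0.13). Without its single most abundant sequence, KWMTBOMO16482, the log2 ratio of the class was −0.070 (−0.11 to −0.029), so without it the summed reads were lower in Spn-E KD under the authors' scaling.

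**Figure D1:**
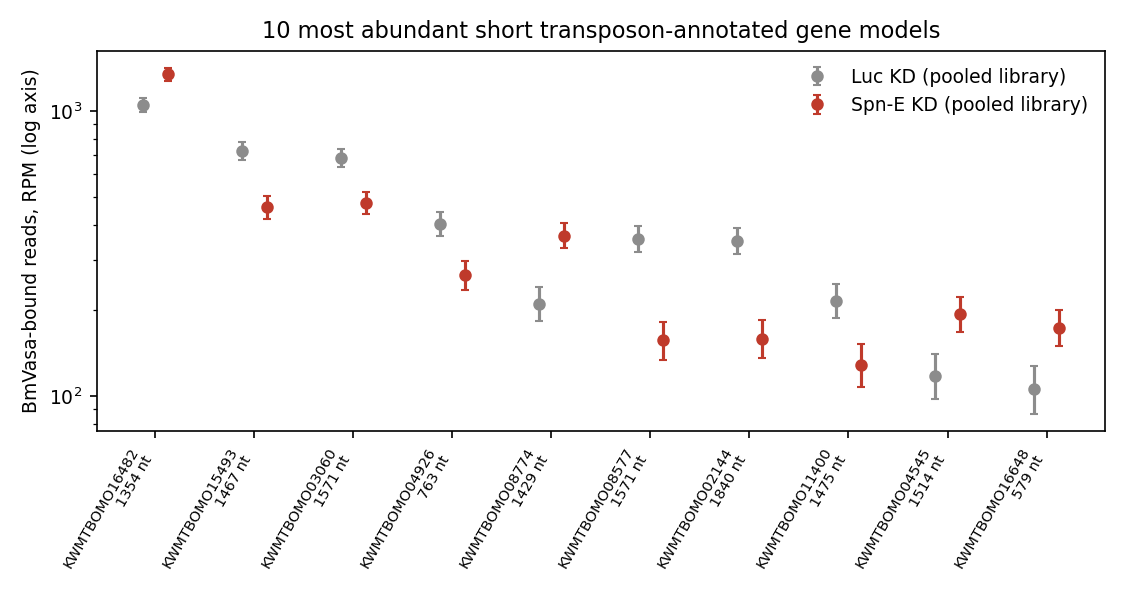
BmVasa-bound reads in RPM (log axis) for the 10 most abundant short transposon-annotated gene models, in order of mean RPM with their lengths, in the pooled Luc KD (grey) and Spn-E KD (red) libraries; bars are 95% intervals of counting error. The points of 6 gene models lie lower in Spn-E KD and those of 4 lie higher, with KWMTBOMO16482 at 1052 and 1346 RPM above all others.

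Ranked by density, the leading gene models were nearly the same. KWMTBOMO16482 had 777 and 994 RPKM, far above the summed density of the class. KWMTBOMO04926 followed with 528 and 348 RPKM, then KWMTBOMO15493 with 493 and 313 RPKM and KWMTBOMO03060 with 436 and 303 RPKM. KWMTBOMO16648, of 579 nt, was number 10 by abundance and number 5 by density, with 183 and 300.0 RPKM.

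For single sequences, the test covered those with a mean of at least 10 RPM over both libraries, which were 4727 in the whole table and 154 of the 1129 short transposon-annotated gene models (13.6%). These 154 held 82.0% and 82.6% of the class's reads. Below 10 RPM in 1 library and above it on average were 27 for Luc KD and 16 for Spn-E KD, which a mean filter keeps because the other library is high. The test called 23 higher in Spn-E KD, or 14.9% of the 154, where 3.74% of all tested sequences were called higher. It called 19 lower, or 12.3%, where 8.23% of all tested sequences were called lower. By size alone, 18 were at least 2-fold higher (11.7%, against 3.13% of all tested sequences) and 15 at least 2-fold lower (9.74%, against 9.54%). Among the 111 that reached 10 RPM in each library, 15 were called higher (13.5%) and 14 lower (12.6%), beside 4.07% and 8.46% of 3782 such sequences of the whole table. The share called higher was not particular to the short gene models, as it was 13.5% for transposon-annotated gene models from 2000 to under 4000 nt and 11.4% for the transposon library. The share of 2-fold lower values was near that of the whole table.

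The split of the calls depended on how the libraries were scaled. With the authors' scaling 54.8% of the calls were higher, beside 31.3% of the calls over the whole table. The split was 28 higher and 15 lower (65.1% higher, beside 52.9% over the whole table) when reads were scaled to the gene library without its most abundant sequence. It was 30 and 13 (69.8%, beside 60.6%) with TMM factors and 32 and 9 (78.0%, beside 69.4%) when centred on tested protein-coding sequences. Under the authors' scaling the median of all tested sequences was −0.24 on the log2 scale, and under these 3 scalings it was −0.074, −0.017 and 0.049. The calls also assume no variation between libraries beyond counting error. When a biological coefficient of variation of 0.1 was supplied to edgeR's exact test, it called 7 higher and 7 lower (74 and 117 over the whole table), and with 0.2 it called 0 higher and 3 lower (0 and 8 over the whole table), the 3 being KWMTBOMO01461, KWMTBOMO03021 and KWMTBOMO03026, although 13 higher and 12 lower had an unadjusted p under 0.05 there.

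The middle of the distribution lay above that of other sequences. Over the 154 tested gene models the median log2 fold change was 0.29 (quartiles −0.39 and 0.76, range −3.37 to 2.87), and 93 (60.4%) were higher in Spn-E KD. The ends of the range belong to KWMTBOMO01461 (39 and 3 reads) and KWMTBOMO04619 (2 and 22 reads) and rest on very few reads in 1 library. The median was −0.25 for 2033 tested protein-coding gene models under 2000 nt, of which 31.7% were higher, and −0.24 for all tested sequences, of which 34.5% were higher. Other transposon sequences lay between. Their medians were 0.0015 for transposon-annotated gene models from 2000 to under 4000 nt, −0.096 for those of 4000 nt or more and 0.030 for the transposon library. A median above that of short protein-coding gene models was thus not particular to the short class. Among the 111 at 10 RPM in each library the median was 0.13, with 66 higher and 45 lower, beside −0.20 for 1536 such short protein-coding gene models. The size of the median and its distance from short protein-coding gene models depended on the filter. The distance was 0.54 log2 units with the mean filter, 0.33 with 10 RPM in each library and 0.28 with a mean of 50 RPM, where the median was 0.067. With no minimum, over 909 gene models with a read, the median was −0.032 and the distance 0.030. Sequences are not replicates, and these medians are descriptions without a test. A higher amount of a transcript and more binding to each copy of it cannot be told apart in these reads.

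**Figure D2:**
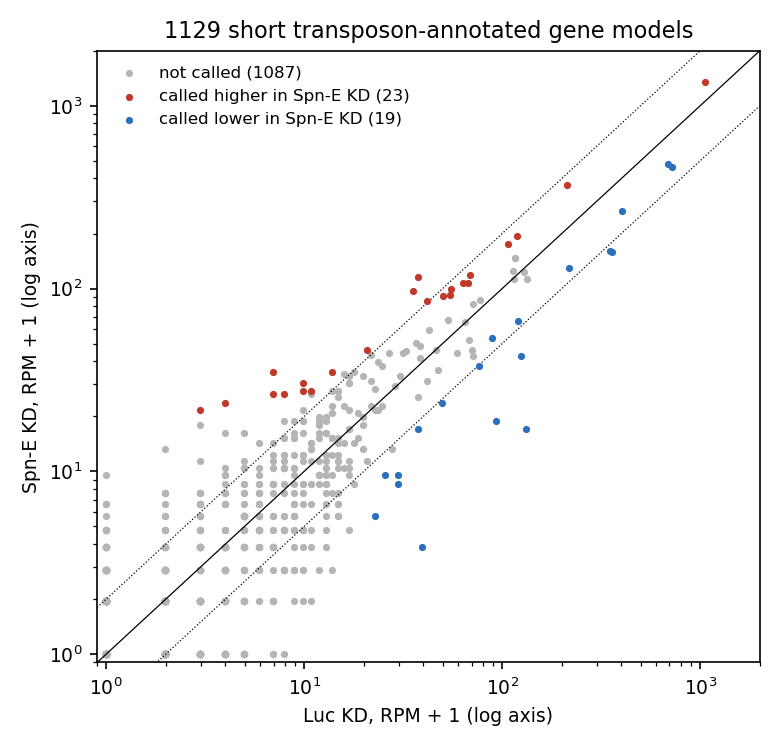
Spn-E KD RPM + 1 against Luc KD RPM + 1 (both log axes) for the 1129 short transposon-annotated gene models, with the 23 called higher in red, the 19 called lower in blue and the 1087 others in grey; the solid line marks equal values and the dotted lines a 2-fold difference. Called gene models lie on both sides of the line from a mean of 11.4 RPM (KWMTBOMO04619) up to KWMTBOMO16482, and the grey grid near the origin is formed by gene models with few reads, which were below 10 RPM and not tested.

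Called and uncalled gene models added up to little net change. The reads of the 23 called higher rose by 1407, from 2060 to 3467, and those of the 19 called lower fell by 1573, from 3635 to 2062. The 112 tested gene models without a call went from 2930 to 3432 reads, and 70 of them were higher in Spn-E KD. The 975 below the minimum had no more than 16 and 18 reads each, and together they went from 1888 to 1883 reads, a log2 ratio of −0.069 (−0.16 to 0.023). Protein-coding gene models under 2000 nt below the same minimum had a log2 ratio of −0.20 (−0.22 to −0.17). Gene models called higher had a median length of 1212 nt, those called lower 1571 nt and the tested ones without a call 1286.5 nt.

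Of the 8 largest rises, 7 were below 10 RPM in Luc KD and entered the test only through their level in Spn-E KD, so their low start follows from the filter and from ranking by fold. KWMTBOMO04619, of 1086 nt, had 2 and 22 reads, and the exact interval of its log2 ratio was 1.37 to 6.53. KWMTBOMO01447, of 1135 nt, had 3 and 24 reads, with an interval from 1.22 to 5.31. At these depths the size of the rise is known only within several-fold. KWMTBOMO14522 had 6 and 36 reads and a log2 fold change of 2.34 (adjusted p = 9.02e-05). KWMTBOMO10902 had 6 and 27 reads (1.93), KWMTBOMO00149 had 7 and 27 (1.74), KWMTBOMO14328 had 9 and 31 (1.61) and KWMTBOMO16190 had 9 and 28 (1.47). KWMTBOMO05549, of 1880 nt, was the only one of the 8 largest rises above 30 reads in Luc KD, with 37 reads there and 122 after Spn-E KD (log2 fold change 1.63, adjusted p = 2.7e-09). Of these 8 gene models, 6 were between 1045 and 1213 nt long, while 74 of the 154 tested were of 1000 to 1499 nt. In edgeR's exact test with an assumed variation of 0.1, KWMTBOMO00149, KWMTBOMO14328 and KWMTBOMO16190 lost the call (adjusted p of 0.0599, 0.0587 and 0.113). With 0.2 none of the 8 was called.

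The largest falls included 3 better covered gene models, KWMTBOMO03021, KWMTBOMO03026 and KWMTBOMO01128. The others, KWMTBOMO01461, KWMTBOMO13766, KWMTBOMO12217, KWMTBOMO05863 and KWMTBOMO04925, were below 10 RPM in Spn-E KD. They entered the test only through their level in Luc KD, so their low end follows from the filter and from ranking by fold. KWMTBOMO01461, of 1638 nt, had 39 and 3 reads, and the interval of its log2 ratio was −6.10 to −2.11. KWMTBOMO03021, of 1785 nt, fell from 133 to 17 reads (log2 fold change −2.96, adjusted p = 1.42e-22). KWMTBOMO03026, of 1769 nt, fell from 93 to 19 reads (log2 fold change −2.29, adjusted p = 4.83e-12). These 3 were the ones still called with an assumed coefficient of variation of 0.2. KWMTBOMO01128, of 1930 nt, fell from 125 to 44 reads, with a log2 fold change of −1.55. KWMTBOMO13766 had 22 and 5 reads (−1.99), KWMTBOMO12217 had 29 and 8 (−1.79) and KWMTBOMO05863 had 29 and 9 (−1.64). The weakest call of the 8 was KWMTBOMO04925, with 25 and 9 reads, a log2 fold change of −1.44 and an adjusted p of 0.0453, and the call was lost with a minimum of 5 RPM (adjusted p = 0.0675) and under 3 other scalings (adjusted p from 0.111 to 0.160). The call of KWMTBOMO05863 was lost with TMM factors (0.0515) and when centred on protein-coding sequences (0.0564), and that of KWMTBOMO13766 when centred (0.0581). All 3 calls were also lost in edgeR's exact test with an assumed variation of 0.1 (adjusted p from 0.0587 to 0.166). Except for KWMTBOMO05863, of 743 nt, the 8 were all longer than 1500 nt, while 53 of the 154 tested were of 1500 to 1999 nt. With 8 gene models picked by fold on each side, nothing was read from their lengths.

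The reads were then divided by length in bins of 500 nt, since length enters the definition of the class. The 110 gene models under 500 nt had 112 and 124 reads, or 2.31 and 2.45 RPKM, and 64.5% of them had no read in either library. The 244 gene models of 500 to 999 nt had 1199 and 1303 reads (6.16 and 6.40 RPKM), and 22.5% had none. The 390 of 1000 to 1499 nt had 5231 and 5903 reads (10.7 and 11.5 RPKM), and 8.72% had none. The 385 of 1500 to 1999 nt had 3971 and 3514 reads (5.80 and 4.91 RPKM), and 15.6% had none. Density therefore peaked between 1000 and 1499 nt and did not climb steadily with length, and without KWMTBOMO16482 that bin still had 8.54 and 8.77 RPKM. In protein-coding gene models of the same bins the share without a read fell at each step, from 32.7% to 15.8%, 7.73% and 4.91%, while their density lay between 7.64 and 10.1 RPKM in Luc KD.

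**Figure D3:**
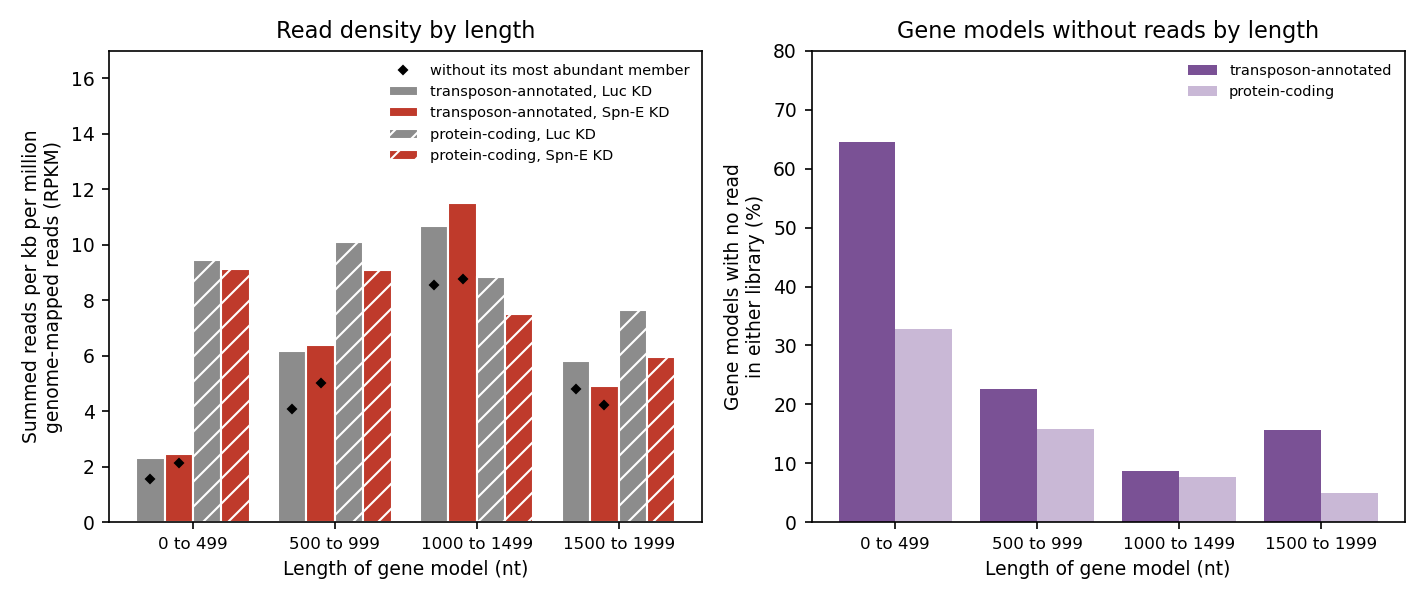
Left, summed RPM per kb of gene model (RPKM) by length bin for transposon-annotated (solid) and protein-coding (hatched) gene models under 2000 nt in Luc KD (grey) and Spn-E KD (red), with diamonds for the transposon-annotated value without the most abundant gene model of the bin. Right, the percentage of gene models with no read in either library; transposon-annotated bars run from 64.5% in the shortest bin to 8.72% at 1000 to 1499 nt and 15.6% in the longest.

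The change in summed reads also differed between the length bins (Pearson's chi-squared statistic 68.3 on 3 degrees of freedom for reads by bin and library). Under the authors' scaling, the log2 ratio of summed RPM was −0.24 (−0.31 to −0.18) at 1500 to 1999 nt and 0.11 (0.055 to 0.16) at 1000 to 1499 nt. It was 0.054 (−0.060 to 0.17) at 500 to 999 nt and 0.081 (−0.30 to 0.46) under 500 nt. Without its most abundant gene model, KWMTBOMO03060, the log2 ratio of the longest bin was −0.19 (−0.26 to −0.12). That value still included KWMTBOMO08577 (360 and 166 reads) and KWMTBOMO02144 (355 and 168 reads), which both fell more than 2-fold. Leaving them out as well was not tried, so a fall of the summed reads beyond these few of the 385 gene models is not shown. The median log2 fold change of the 53 tested gene models of this bin was 0.033, so most of these 53 did not share the fall in summed reads. This does not extend to the whole bin. Over all 385 gene models, tested or not, the median density dropped from 1.09 to 0.596 RPKM after the knockdown. The rise at 1000 to 1499 nt rested on KWMTBOMO16482, without which the log2 ratio was 0.038 (−0.023 to 0.0995). Leaving out KWMTBOMO04926 from the bin of 500 to 999 nt moved its value to 0.30 (0.17 to 0.44), and leaving out KWMTBOMO13131 from the shortest bin moved it to 0.45 (0.0078 to 0.89). The calls were 0 higher and 1 lower of 3 tested under 500 nt, 2 and 2 of 24 at 500 to 999 nt, 14 and 5 of 74 at 1000 to 1499 nt and 7 and 11 of 53 at 1500 to 1999 nt, where 3.74% of all tested sequences were called higher and 8.23% lower. Short protein-coding gene models had log2 ratios of −0.050, −0.16, −0.23 and −0.36 from the shortest to the longest bin, so that each bin of transposon-annotated gene models had the higher value, with overlapping intervals under 500 nt.

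Divided by abundance, the summed reads under the authors' scaling rose beyond counting error only for gene models between 10 and 50 RPM. The 80 with a mean of 10 to 20 RPM had a log2 ratio of summed RPM of 0.26 (0.14 to 0.38), and the 34 of 20 to 50 RPM had 0.27 (0.14 to 0.39). Of these, 31 of the 80 and 10 of the 34 were lower in Spn-E KD. The 24 of 50 to 100 RPM were level at 0.0071 (−0.090 to 0.10), and the 16 of 100 RPM or more fell, at −0.14 (−0.20 to −0.080). Below 10 RPM no class differed beyond counting error, with 0.22 (−0.051 to 0.49) under 1 RPM, −0.13 (−0.27 to 0.0037) at 1 to 5 RPM and −0.082 (−0.23 to 0.063) at 5 to 10 RPM. Short protein-coding gene models were below 0 in each of these 7 classes, from −0.11 to −0.30. The abundance classes were chosen after the data were seen.

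**Figure D4:**
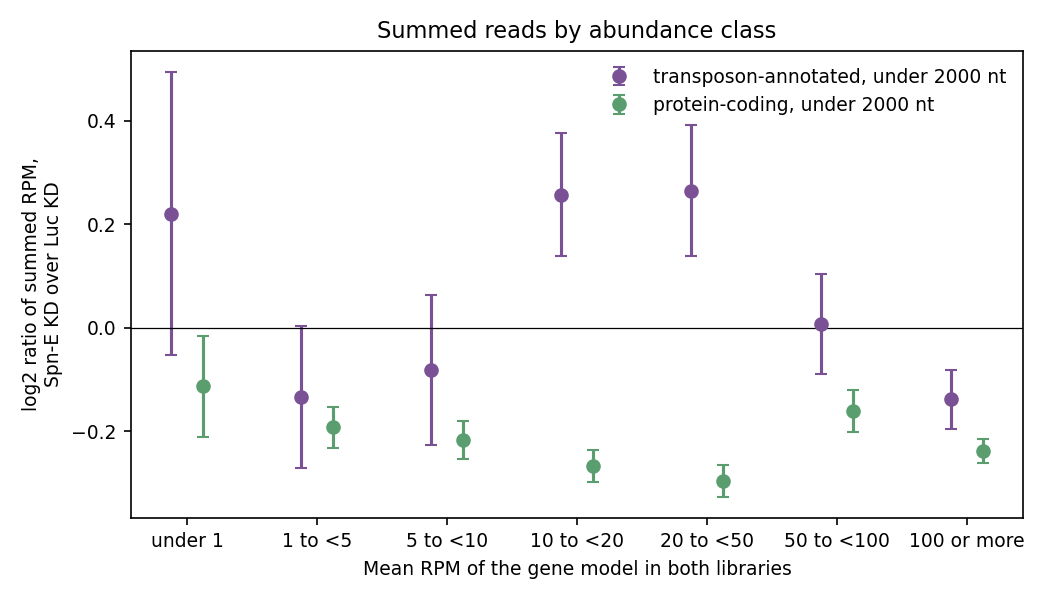
The log2 ratio of summed RPM, Spn-E KD over Luc KD, by class of mean RPM for transposon-annotated (purple) and protein-coding (green) gene models under 2000 nt, with 95% intervals of counting error. Under the authors' scaling, the transposon-annotated values are above 0 at 10 to 20 RPM (0.26) and 20 to 50 RPM (0.27) and below 0 at 100 RPM or more (−0.14), while all protein-coding values are below 0.

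Set against other classes, the short gene models changed unlike the longest transposon-annotated and the short protein-coding ones, and not detectably otherwise than the next longer ones. Relative to transposon-annotated gene models of 2000 to under 4000 nt, which went from 36609 to 38486 reads, their reads changed by a log2 odds ratio of −0.027 (−0.071 to 0.016; Pearson's chi-squared test on reads, adjusted p over 3 comparisons 0.221). Relative to those of 4000 nt or more, which fell from 28361 to 24011 reads, the log2 odds ratio was 0.28 (0.24 to 0.33; adjusted p = 1.57e-33). Relative to protein-coding gene models under 2000 nt, which fell from 106760 to 94847 reads, it was 0.22 (0.17 to 0.26; adjusted p = 4.62e-25). The first of these depended on a few sequences and on the length limit. It was 0.062 (0.0049 to 0.12) without the 10 most abundant gene models of each class, 0.11 (0.062 to 0.17) with the limit set at 1500 nt and −0.058 (−0.098 to −0.019) with the limit at 2500 nt.

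At the limit of 2000 nt, the longest gene models inside were KWMTBOMO07891, of 1999 nt with 3 reads in each library, and KWMTBOMO10204, of 1996 nt with 1 and 2 reads. The shortest outside were KWMTBOMO14492, of 2001 nt with 5 and 0 reads, and KWMTBOMO00367, of 2005 nt with 9 and 15 reads. The shortest of all, KWMTBOMO16684 of 279 nt, had no read in either library.

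Gene models that arise from copies of an element can share reads, since reads were mapped with mismatches allowed and those that match several sequences are placed at random or counted more than once. No sequence was used here, and equal length was taken as the only available hint of a shared origin. Of the 1129 gene models, 686 shared their length with at least 1 other, over 238 lengths, and the most common length, 1755 nt, was held by 13. Lengths were a multiple of 3 in 32.9%, so the gene models are not coding sequences alone. Among the 154 tested, 10 pairs had equal lengths, and no pair had the same reads.

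The gene models of 9 of the 10 pairs had log2 fold changes of the same sign, 6 pairs higher and 3 lower in Spn-E KD, although their sizes often differed and 1 of the 9, at 1421 nt, held a value next to 0 that turned positive under 3 other scalings. Pairs of unequal length were not examined for comparison, and 60.4% of the 154 tested gene models were higher. Whether the paired gene models share an origin was not tested. KWMTBOMO03060 and KWMTBOMO08577, both of 1571 nt, fell together, with log2 fold changes of −0.52 and −1.18. At 1135 nt, KWMTBOMO01447 went from 3 to 24 reads and KWMTBOMO12129 from 12 to 16. At 1208 nt, KWMTBOMO16190 went from 9 to 28 (log2 fold change 1.47) and KWMTBOMO03520 from 9 to 12 (0.32). At 1160 nt, KWMTBOMO12639 was called higher, from 69 to 125 reads (log2 fold change 0.78, adjusted p = 0.00374), and KWMTBOMO03842 went from 11 to 18 (0.60) without a call. At 579 nt, KWMTBOMO16648 was called higher (0.71) and KWMTBOMO11801 went from 7 to 15 reads (0.94) without a call. In both pairs the gene model without a call had the fewer reads. In the other 5 pairs no gene model was called. At 1158 nt KWMTBOMO07273 had 53 and 70 reads and KWMTBOMO15122 16 and 34, and the latter was called only when centred on protein-coding sequences or scaled with TMM factors. At 895 nt KWMTBOMO00926 had 37 and 26 reads (−0.56) and KWMTBOMO11770 had 19 and 13 (−0.57). At 1204 nt KWMTBOMO00095 had 12 and 10 reads (−0.30) and KWMTBOMO06405 had 16 and 17 (0.021), the only pair of opposite sign, and at 1263 nt KWMTBOMO14881 had 13 and 15 and KWMTBOMO15641 had 14 and 26. At 1421 nt KWMTBOMO11599 had 46 and 48 reads (−0.0041) and KWMTBOMO11729 had 16 and 9 (−0.82).

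Most short gene models stood alone in the numbering of identifiers. The 1129 formed 997 runs of consecutive numbers, of which 886 held a single gene model, and 243 gene models lay in 111 runs of at least 2. The longest runs held 4. KWMTBOMO14797 to KWMTBOMO14800 had 59 and 76 reads, nearly all on KWMTBOMO14799 (42 and 62) and KWMTBOMO14800 (17 and 14). KWMTBOMO08119 to KWMTBOMO08122 had 10 and 8 reads. KWMTBOMO16218 to KWMTBOMO16221 had 8 reads in Luc KD, 7 of them on KWMTBOMO16220, and 0 in Spn-E KD.

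Identifiers next to a called gene model were examined after the values were seen. The 23 gene models called higher had 46 neighbours by number, of which 15 were tested, and 4 of these were called higher and 1 lower. The 19 called lower had 38 neighbours, of which 12 were tested, and 3 were called lower and 1 higher. In the whole table, 3.74% of tested sequences were called higher and 8.23% lower, and with so few tested neighbours nothing was read from these counts. KWMTBOMO04925 and KWMTBOMO04926, both short transposon-annotated gene models, were lower together. KWMTBOMO15493 stood beside KWMTBOMO15494, a protein-coding gene model that fell from 556 to 397 reads (log2 fold change −0.55). KWMTBOMO16648 stood between KWMTBOMO16647, which rose from 105 to 218 reads (0.98), and KWMTBOMO16649, which rose from 2246 to 3092 reads (0.40), both longer transposon-annotated gene models. The opposite was seen for KWMTBOMO04619, which rose beside KWMTBOMO04620, of 4202 nt, which fell from 45 to 13 reads (−1.78), and for KWMTBOMO01099, which fell from 76 to 39 reads beside the protein-coding KWMTBOMO01098, which rose from 10 to 31. The 2 strongest falls with more than 10 reads in each library, KWMTBOMO03021 and KWMTBOMO03026, lay 5 numbers apart, with KWMTBOMO03023 of 2052 nt between them, which fell from 133 to 61 reads (−1.18). The protein-coding KWMTBOMO03022 in the same stretch went from 18 to 13 reads without a call, and the short KWMTBOMO03025 had none. Whether neighbouring gene models overlap or share reads was not tested, and identifier numbers are not positions.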

How the data were processed

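The authors trimmed adaptors (Cutadapt 4.0), used random barcodes to collapse PCR duplicates, and mapped reads to the SilkBase genome with STAR 2.7.9a and then to SilkBase gene models and transposons with Bowtie 1.3.1. Sense reads were taken with SAMtools 1.15 and replicates merged. The study's methods name a random and a multiple mode for reads that match several sequences, and which one the table holds is not given in the sources used here. The deposited counts are these pooled reads, the deposited RPM are counts per 1000000 genome-mapped reads, and the deposited RPKM are RPM per kb. Pearson's chi-squared test served for shares (Wilson and Newcombe intervals). Single sequences reaching 10 RPM on average entered a two-sided exact binomial test, the expected share set by genome-mapped reads, with Benjamini-Hochberg adjustment over 4727 sequences at 0.05, after a check on simulated counts. Log2 fold changes used RPM + 1, which understates changes of low sequences, and ratios of reads have exact Clopper-Pearson intervals. Where a library had 3 reads or fewer, reads and the interval stand in place of a fold, except in the range over tested gene models.

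The gene models named were the 10 most abundant, the 5 densest, the 8 largest rises and falls among calls, those at the length limit, the shortest and longest, the 3 longest runs of identifiers, and tested pairs of equal length. KWMTBOMO13131, KWMTBOMO01099 and neighbouring gene models were named after their values were seen. The members and lists were chosen with earlier results of these data known. Alternatives covered the minimum, the pseudocount, the scaling, the length limit, the most abundant sequences and an assumed variation. Those on single bins, on 10 RPM in both libraries, on abundance classes and on neighbours were added after the data were seen. Of the identifiers, 0 matched the RefSeq gene table of assembly ASM3026992v2, and no sequence or position was used. Software was R 4.3.3 with edgeR 4.0.16, and Python 3.11.15 with numpy 2.4.6, scipy 1.17.1, pandas 2.3.3 and matplotlib 3.10.9.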

Additional observations from a re-analysis of the deposited data

How the results depend on the processing

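No paired analysis was possible because replicates were merged before deposit, and for the same reason the fits with a replicate block and those leaving out a replicate were not run. Most gene models had too few reads for a test, reads shared between similar gene models cannot be separated, and calls exceed counting error only.

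The difference in read share, −0.047 points, became 0.363 with the most abundant sequence left out of the base, 0.085 without the 10 most abundant gene models of the class, 0.12 with the limit at 1500 nt and −0.11 with the limit at 2500 nt, and the last 4 all passed the test. It kept its direction and side on genome-mapped reads and on sequences of at least 10 RPM. The log2 odds ratio against gene models of 2000 to under 4000 nt, −0.027, became 0.062, 0.11 and −0.058 without the 10 most abundant of each class and with the limits at 1500 and 2500 nt, while the ratios against the other 2 classes kept their direction and call under these 3.

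The median log2 fold change of tested gene models, 0.29, and its distance from short protein-coding ones, 0.54, were 0.13 and 0.37 with a minimum of 5 RPM, 0.067 and 0.28 with 50 RPM, −0.032 and 0.030 with no minimum, and 0.13 and 0.33 with 10 RPM in both libraries. The distance was 0.43 with a pseudocount of 5. The median was 0.44, 0.50 and 0.56 on gene-library reads without the most abundant sequence, with TMM factors and when centred on protein-coding sequences, and the distance stayed between 0.53 and 0.54. Gene models at least 2-fold higher and lower, 18 and 15, were 33 and 34 with a minimum of 5 RPM, 3 and 6 with 50 RPM, 122 and 133 with no minimum, and 33 and 9, 36 and 8, and 47 and 8 under the 3 scalings in the order above. Calls by the exact binomial test, 23 higher and 19 lower, were 13 higher with a minimum of 50 RPM, 15 higher with 10 RPM in both libraries and 9 lower when centred. With an assumed coefficient of variation of 0.1 they were 7 and 7, and with 0.2 they were 0 and 3.

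For the named gene models, 333 of 385 values under the alternatives kept direction and call, 47 lost the call (38 of them under an assumed variation) and 2 gained one. Part of the 333 could not change, since a pseudocount does not enter the test on reads and an assumed variation does not alter the fold. Gene models without a call in the main test also counted as kept. An assumed variation of 0.1 removed 14 calls and one of 0.2 removed 24. The cause was not tested.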
